A study of Homo sapiens with 12 samples.

Results

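The oxidative phosphorylation system of the inner mitochondrial membrane is built from subunits of 2 genomes, and the genes described here are the nuclear share of it. Members were chosen by name only: genes beginning with NDUFA, NDUFB, NDUFC, NDUFS or NDUFV and a digit, with UQCR, with COX and a digit from 4 to 8, or with ATP5, together with the SDH genes and CYC1. Names ending in P and digits, which mark pseudogenes, and names with a hyphen were left out. This gave 88 of the 58302 rows of the expression table, 38 for complex I, 5 for complex II, 10 for complex III, 17 for complex IV and 18 for complex V. The rule used names and no measured value, but it was set with earlier results of these data known.

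Complexes I and II pass electrons from NADH and from succinate to ubiquinone, complex III passes them on to cytochrome c, and complex IV hands them to oxygen. Complexes I, III and IV pump protons across the membrane, and complex V, the ATP synthase, lets them flow back to make ATP. A few central subunits of complexes I, III, IV and V are encoded by mitochondrial DNA, whereas complex II is wholly nuclear, so that the nuclear and mitochondrial transcripts have to be supplied together. Thyroid follicular cells depend on these complexes for energy, and altered oxidative metabolism is a known feature of some thyroid tumours.

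RNA was sequenced from 12 libraries, 3 for each of 4 lines. TPC1 is a human papillary thyroid carcinoma cell line and was labelled wild type and untreated. D11, WB1 and TD5 are 3 Dicer1 (+/-) clones, each grown as a monoclonal population after TPC1 was transiently transfected with a CRISPR/Cas9 plasmid, and all 4 lines were kept in the same medium. The study asked how the loss of 1 allele of Dicer1, which makes microRNAs, changed the transcriptome. Each clone is therefore 1 line, so the effect of the genotype and the history of that clone cannot be told apart. The labels do not say whether the libraries of a line came from separate cultures, so p-values measure only the spread between these libraries, which may be technical.

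The deposited values are gene counts that the authors scaled to 20000000 aligned reads per library, called scaled reads below. The depth behind them was estimated at 12700000 to 21020000 reads, and 3 reads corresponded to 2.85 to 4.72 scaled reads, which covers counting error only. DICER1 itself had 1101 to 1360 scaled reads in TPC1, 977 to 1093 in D11, 815 to 939 in WB1 and 627 to 809 in TD5. Against TPC1 this was a log2 fold change of −0.77 for TD5 (adjusted p = 9.02e-05), −0.43 for WB1 (adjusted p = 0.00404) and −0.19 for D11 (adjusted p = 0.138), so the difference in D11 did not pass. Of the thyroid markers, PAX8 was high in all libraries (7248 to 9879 scaled reads), FOXE1 had 280 to 316 in TPC1 and 93 to 171 in the clones, and TG had 11 to 27, while SLC5A5, NKX2-1 and TSHR were at 0 throughout. FOXE1 was lower in each clone (−0.95 for D11, −1.06 for WB1 and −1.20 for TD5, adjusted p at most 0.000138), and PAX8 was higher in WB1 (0.26, adjusted p = 0.0112) and TD5 (0.27, adjusted p = 0.0197). Of 5 epithelial markers, the keratins KRT8 and KRT18 had 5237 to 16274 scaled reads. The keratin KRT19 had at most 6, and the adhesion markers CDH1 and EPCAM at most 5. KRT8 and KRT18 were lower in all 3 clones. Of 4 leukocyte markers, PTPRC, CD3E and CD14 had at most 6, while CD68 had 921 to 1514 and was higher in WB1 (0.42, adjusted p = 0.00318). Of 5 fibroblast markers, DCN, COL1A2 and COL3A1 had at most 2, COL1A1 had 48 to 97, and LUM had 63 to 78 in TPC1, 138 to 212 in WB1, at most 2 in TD5 and 0 in D11. The endothelial markers PECAM1, VWF and CDH5 had at most 7. The part of these markers in the results was not tested. Bulk RNA cannot tell fewer cells of a kind from less RNA per cell.

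Almost all members were well expressed. Of the 88, 80 passed the filter of at least 1 per 1000000 in at least 3 libraries, and 79 of these had at least 300 scaled reads in every library. Together the members took 0.84% to 0.935% of all reads, of which complex V held 36.7%, complex I 29.6%, complex III 14.6%, complex IV 13.3% and complex II 5.83%. The most abundant member was ATP5B, the catalytic beta subunit of the ATP synthase, with up to 18337 scaled reads in a library. ATP5A1 and ATP5B, the alpha and beta subunits, made up 46.8% to 49.1% of the complex V sum.

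Compared per kilobase of the canonical transcript and per 1000000 reads, over all libraries and among the tested members, ATP5B was the highest of complex V at 997 and ATP5S the lowest at 19.9. In complex IV the highest was COX4I1 at 719 and the lowest COX7B at 66.7. In complex III these were UQCRH at 472 and UQCRB at 44.8, in complex II SDHB at 215 and SDHD at 117, and in complex I NDUFB9 at 591 and NDUFA4L2 at 3.31. The canonical transcripts differ in how much 3′ end they hold, so this order is crude for genes with long annotated ends such as UQCRB and COX7B.

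The tissue-restricted isoforms were nearly absent. COX4I2, the oxygen-sensitive partner of COX4I1, had 2 scaled reads in 1 library and none in the other 11, COX6A2, the muscle form, was at 0 in all 12, and COX7A1, the other muscle form, had at most 5. The testis forms COX6B2, COX7B2 and COX8C had at most 11, 2 and 0. Their ubiquitous counterparts COX4I1, COX6A1, COX6B1, COX7A2, COX7B and COX8A had between 1421 and 5816 scaled reads in every library. NDUFA4L2, a hypoxia-inducible relative of NDUFA4, was measured at 21 to 43, against 1954 to 2337 for NDUFA4, which despite its name is a subunit of complex IV. Since complexes were assigned by name, both genes stand under complex I in all sums, counts and orders given here, and not under complex IV. The 2 remaining untested rows were ATP5L2, with at most 2 scaled reads, and ATP5J2LP, at 0, a processed pseudogene that the naming rule let through.

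Summed over its genes, complex III was lower in all 9 clone libraries than in any TPC1 library, and for complex I this held for the 3 D11 libraries. The other sums of each clone overlapped with those of TPC1. The complex III sum was 1341.59, 1351.32 and 1437.17 per 1000000 in TPC1, 1254.46, 1285.98 and 1216.39 in D11, 1242.47, 1281.43 and 1275.91 in WB1, with 1299.43, 1330.23 and 1198.16 in TD5. The lowest TPC1 library and the highest clone library, TD5 replicate 2, lay close together. As a percent of the TPC1 mean, D11 stood at 91.0%, WB1 at 92.0% and TD5 at 92.7%. Without CYC1, the largest of the 10 in this sum, the other 9 came to 94.6%, 95.0% and 94.7% of TPC1. The sums of complex I were 95.6%, 97.7% and 97.6% of TPC1, of complex II 98.3%, 100.3% and 99.1%, of complex IV 97.1%, 97.8% and 95.5%, and of complex V 96.8%, 97.1% and 98.3%, in D11, WB1 and TD5. These sums were taken as a description, with no test.

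**Figure D1:**
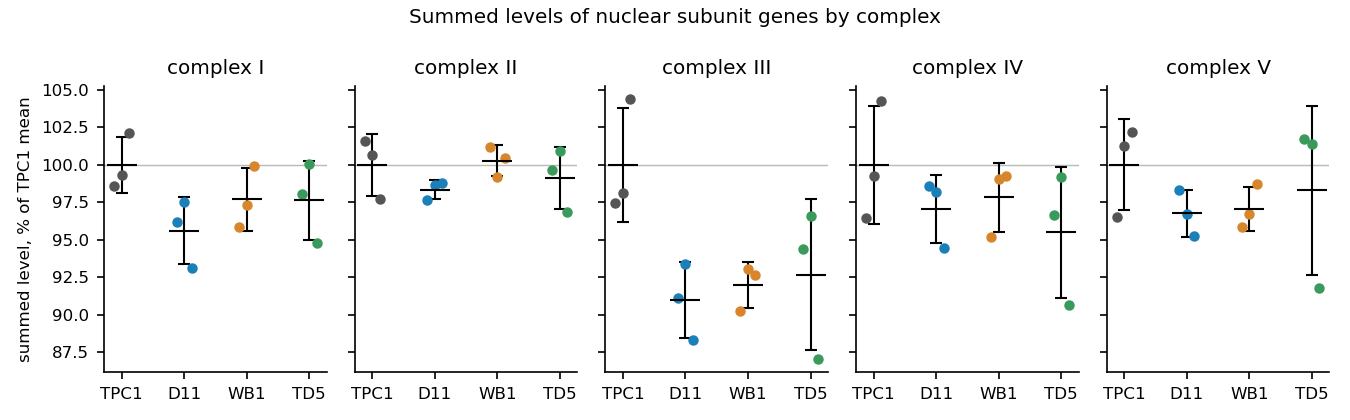
Summed level of the nuclear subunit genes of each complex in the 12 libraries, as a percent of the mean of the 3 TPC1 libraries (y axis, which does not start at 0). Points are libraries, the horizontal bars are means and the vertical bars are SD (n = 3); the clone means of complex III sit at 91.0% to 92.7%, those of the other complexes at 95.5% to 100.3%.

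Differences of single genes were small. No member reached 1.5-fold in any of the 6 comparisons between lines, where 4.84% (D11 against TPC1), 4.99% (WB1 against TPC1), 2.6% (TD5 against TPC1), 2.85% (WB1 against D11), 3.99% (TD5 against D11) and 2.33% (TD5 against WB1) of all tested genes passed at that size. The largest absolute log2 fold change was 0.44, and for 69 of the 80 tested members the means of the 4 lines lay within 0.25 of each other on the log2 scale. Each gene was tested by limma on log2(value per 1000000 + 1) over all 12 libraries, and it passed at a Benjamini-Hochberg adjusted p under 0.05 over all 16027 genes tested. In D11 against TPC1, 19 of 80 members passed, 4 higher and 15 lower, where 33.3% of all tested genes passed (19.9% higher, 13.4% lower). In WB1 against TPC1, 13 passed, 5 higher and 8 lower, against a background of 30.9% (18.6% higher, 12.3% lower). In TD5 against TPC1, 4 passed, all lower, against 11.9% (5.32% higher, 6.57% lower). The members passed at 23.8%, 16.3% and 5%, each below the share of all genes, a difference that was not tested.

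These splits depended on the scaling. With median-of-ratios scaling the members that passed were 2 higher and 24 lower in D11 and 2 higher and 18 lower in WB1. Over all genes that scaling also turned the split, from 3185 higher and 2144 lower to 2310 and 2967 in D11, and from 2983 and 1973 to 2087 and 2854 in WB1. After each library was corrected for its trend with GC content they were 1 higher and 17 lower in D11 and 0 higher and 12 lower in WB1, where all genes had 1712 and 2131 in D11 and 1970 and 2249 in WB1. After the correction for transcript length they were 4 higher and 11 lower in WB1, where all genes had 2116 and 2700. Over the tested members the median log2 fold change was −0.05 (D11), −0.06 (WB1) and −0.04 (TD5), beside medians of 0.05, 0.06 and 0.00 over all tested genes. The 3 clone comparisons share the TPC1 libraries, so they are not independent of each other.

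**Figure D2:**
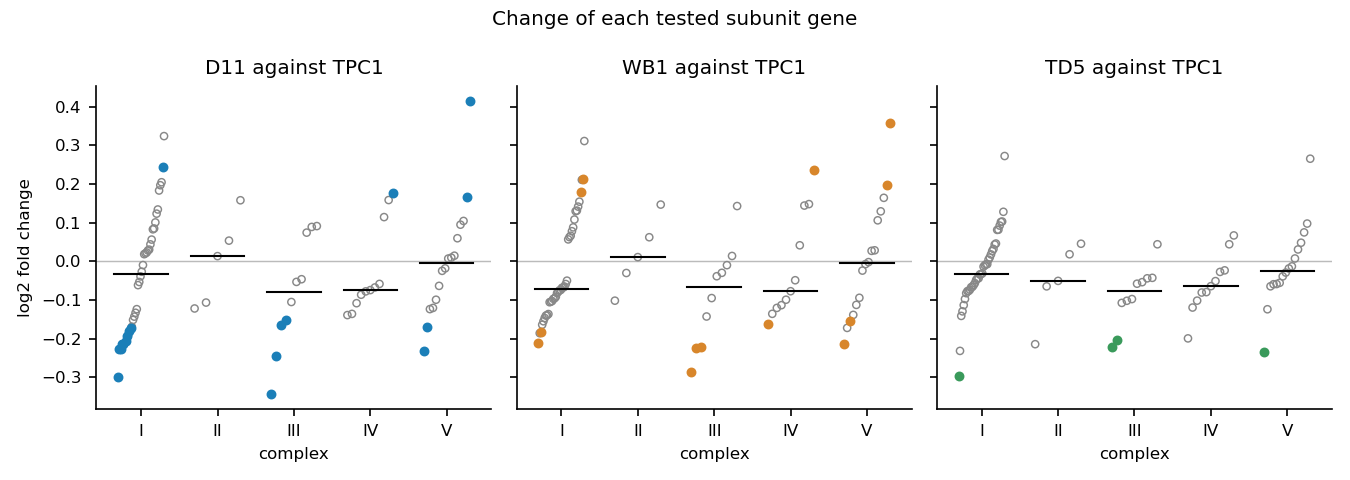
Log2 fold change of each of the 80 tested members against TPC1 (y axis), ordered by size within each complex (x axis), in D11, WB1 and TD5. Filled points passed at an adjusted p under 0.05, open points did not, and black bars are medians; no point reaches 1.5-fold, and every filled point of complex III lies below 0.

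In complex III, D11 had 4 of 10 members lower, WB1 had 3 and TD5 had 2, and none was higher. Of all tested genes, 13.4% (D11), 12.3% (WB1) and 6.57% (TD5) were lower, and the difference from these shares was not tested. CYC1, the cytochrome c1 that passes electrons to cytochrome c (ENSG00000179091, GRCh38 chromosome 8, 144095039 to 144097525), was counted at 5942, 5947 and 6753 scaled reads in TPC1, 4852, 5018 and 4778 in D11, 5218, 5070 and 4969 in WB1, with 5182, 5910 and 4910 in TD5. All 9 clone libraries were below all 3 TPC1 libraries, with TD5 replicate 2 only just below. It was lower by a log2 fold change of −0.34 in D11 (SE 0.07, adjusted p = 0.00159) and −0.29 in WB1 (adjusted p = 0.00511), and TD5 lay nearer to TPC1 at −0.22 (adjusted p = 0.0419). The differences of D11 and WB1 passed under every alternative processing tried and without each single library, while that of TD5 was lost without TPC1 replicate 1 or 3, D11 replicate 1, 2 or 3, WB1 replicate 2, or TD5 replicate 1 or 3. The TD5 call was also lost with a filter of any value above 0, with the replicate block, with the block and the length correction, and with the 2 lines alone, and the same held for ATP5G1 in TD5.

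UQCRC1, a core protein of complex III, had 4289, 4526 and 4869 scaled reads in TPC1 against 3929, 3898 and 3706 in D11 and 3816, 3954 and 3948 in WB1, with no overlap. It was lower by a log2 fold change of −0.24 in D11 (SE 0.06, adjusted p = 0.00695) and −0.22 in WB1 (adjusted p = 0.0124). Both missed the threshold after the correction for GC content (adjusted p = 0.0564 and 0.0569), and the WB1 difference also without TPC1 replicate 3. TD5 had 4336, 4473 and 3937 and overlapped with TPC1 (−0.10, adjusted p = 0.301).

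UQCRFS1, the Rieske iron-sulfur protein, had 2392, 2459 and 2428 scaled reads in TPC1 and 2071, 2060 and 2089 in WB1. The 2 groups were tight and well apart, and the difference (−0.22, SE 0.06, adjusted p = 0.00712) passed under all alternatives and without each library. In D11 it had 2188, 2230 and 2124 (−0.15, adjusted p = 0.0456), a call that was lost when any of 10 single libraries was left out. UQCRC2, the second core protein, was lower in D11 (−0.16, adjusted p = 0.0305), with 3472, 3415 and 3373 against 3832, 3853 and 3814, and this was lost without any 1 of the 6 libraries compared. UQCR10, a small accessory subunit, was lower in TD5 (−0.20, adjusted p = 0.0368), with 993, 1068 and 1024 against 1184, 1153 and 1227, and was lost without any TPC1 library, D11 replicate 1 or 2, or TD5 replicate 1 or 3. UQCR11, UQCRB, UQCRH, UQCRHL and UQCRQ passed in no clone against TPC1. Taken after their values were seen, the 6 members other than CYC1, UQCRC1, UQCRC2 and UQCRFS1 summed to 102.1%, 101.7% and 96.3% of TPC1.

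**Figure D3:**
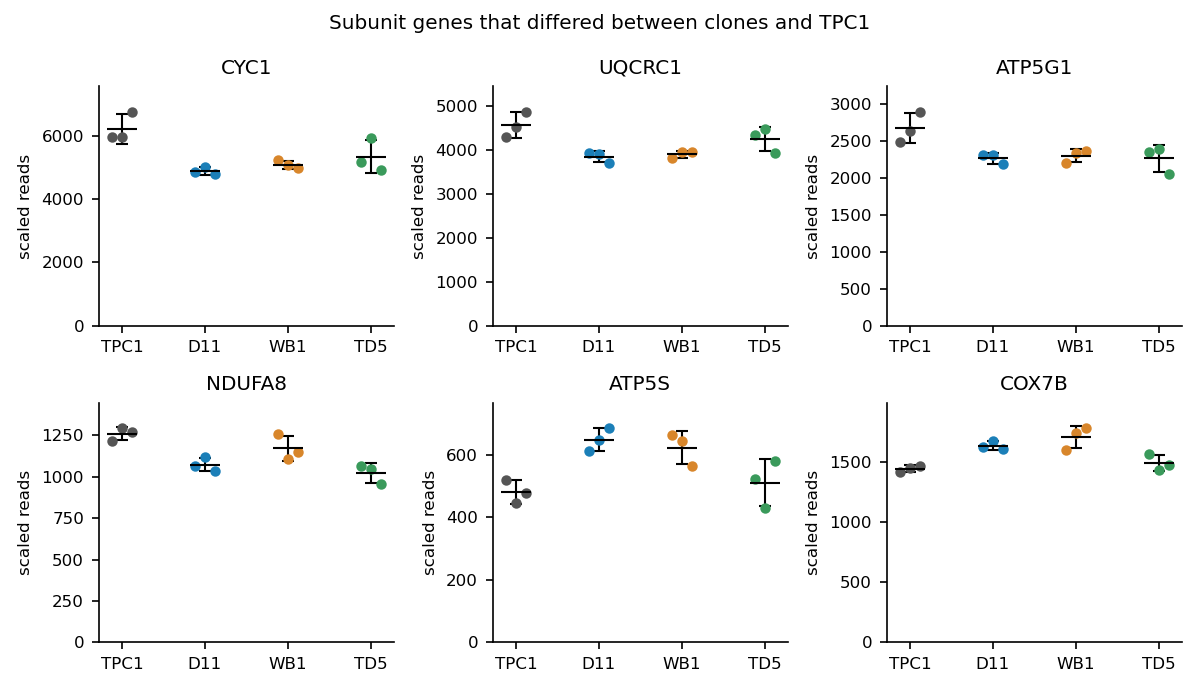
Scaled reads of 6 members (y axes, from 0) in the 3 libraries of each line. Points are libraries, with mean and SD (n = 3); CYC1, UQCRC1, ATP5G1 and NDUFA8 were lower in at least 2 clones and ATP5S and COX7B higher in D11 and WB1.

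In complex I, 10 of 38 members passed in D11 (9 lower), 4 in WB1 (2 lower) and 1, lower, in TD5. The members lower were 23.7% (D11), 5.26% (WB1) and 2.63% (TD5), beside 13.4%, 12.3% and 6.57% of all tested genes. NDUFA8, an accessory subunit on the intermembrane side (chromosome 9, 122144058 to 122159779), had 1216, 1294 and 1269 scaled reads in TPC1, 1066, 1118 and 1038 in D11, 1258, 1110 and 1151 in WB1, with 1065, 1047 and 954 in TD5. D11 and TD5 lay below TPC1 with no overlap, while WB1 overlapped. It was lower in TD5 (−0.30, SE 0.07, adjusted p = 0.00886) and in D11 (−0.23, adjusted p = 0.0187), and both passed under all alternative processings. The D11 call was lost without TPC1 replicate 2 or 3 or D11 replicate 1 or 3.

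NDUFA13, known also as the cell death regulator GRIM-19, had 1655, 1670 and 1774 scaled reads in TPC1, 1391, 1437 and 1309 in D11 and 1418, 1438 and 1543 in WB1. Both clones were below TPC1 with no overlap. It was lower by −0.30 in D11 (adjusted p = 0.00317), with or without any library or processing choice, and by −0.21 in WB1 (adjusted p = 0.0222), which missed the threshold after GC correction (adjusted p = 0.170) and when TPC1 replicate 3, WB1 replicate 1 or WB1 replicate 2 was left out. NDUFV1, which binds NADH and its flavin, was lower in D11 (−0.23, adjusted p = 0.0124) and WB1 (−0.18, adjusted p = 0.0365), with 2367, 2387 and 2586 scaled reads in TPC1, 2156, 2073 and 2029 in D11 and 2179, 2078 and 2195 in WB1. After GC correction neither passed (adjusted p = 0.106 and 0.254). The D11 call was lost without TPC1 replicate 3 or D11 replicate 3, and the WB1 call without TPC1 replicate 2 or 3 or any WB1 library.

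NDUFS3, a core subunit of the arm that leads electrons to ubiquinone, was lower in D11 (−0.21, adjusted p = 0.0144), also after GC correction (adjusted p = 0.0302). NDUFS3 had 2000 to 2048 scaled reads in TPC1, 1623 to 1819 in D11, 1832 to 1954 in WB1 and 1807 to 1982 in TD5, so that no clone library reached TPC1. The D11 call was lost without D11 replicate 3. Also lower in D11 were NDUFA9 (−0.17), NDUFB10 (−0.19), NDUFB11 (−0.21) and NDUFS5 (−0.22), accessory subunits with adjusted p of 0.0132 to 0.0425. Of these calls, NDUFS5 was lost without TPC1 replicate 2 or D11 replicate 1, NDUFA9 and NDUFB11 without TPC1 replicate 2 or 3 or any D11 library, and NDUFB10 without any 1 of the 6. After GC correction NDUFB10 (−0.08, adjusted p = 0.3) and NDUFB11 (−0.09, adjusted p = 0.264) did not pass, while NDUFA9 (−0.32, adjusted p = 0.00137) and NDUFS5 (−0.25, adjusted p = 0.00227) did. The core subunits NDUFS1, NDUFS7, NDUFS8 and NDUFV2 passed in no clone against TPC1. NDUFS7 had the second largest range of line means in complex I (0.38 on the log2 scale), with 391 to 606 scaled reads in TPC1 and 448 to 673 in TD5 (0.27, adjusted p = 0.299), and its groups overlapped.

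The complex I members that were higher were accessory subunits. NDUFB5 was higher in D11 (0.24, adjusted p = 0.0115), with 1453, 1495 and 1603 scaled reads against 1306, 1282 and 1245 in TPC1, and after GC correction the difference was 0.01 (adjusted p = 0.884). It was also lost without D11 replicate 3. NDUFA6 (0.21, adjusted p = 0.0438) and NDUFA12 (0.18, adjusted p = 0.0437) were higher in WB1. NDUFA6 overlapped by no library with TPC1 (1087 to 1269 against 918 to 1071), and both were lost with median-of-ratios scaling (adjusted p = 0.141 and 0.198) and after GC correction (adjusted p = 0.203 and 0.791). NDUFA6 was lost in 8 and NDUFA12 in 7 of the 12 fits that left out 1 library. NDUFA5 had the lowest GC content of the tested members, at 34.6%, and log2 fold changes of 0.32 in D11 and 0.31 in WB1 that did not pass (adjusted p = 0.0982 and 0.116).

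In complex II, the succinate dehydrogenase that also serves the citric acid cycle, no member passed against TPC1 in any clone. Of all tested genes, 33.3% (D11), 30.9% (WB1) and 11.9% (TD5) passed. SDHA, the flavoprotein, had 3602 to 3694 scaled reads in TPC1, 3352 to 3432 in D11, 3240 to 3576 in WB1 and 3581 to 4016 in TD5, and all log2 fold changes were between −0.11 and 0.05. SDHB, the iron-sulfur subunit, ranged from 1904 to 2312 over the 12 libraries. SDHC, a membrane anchor, had 2214 to 2411 in TPC1 and 2519 to 2656 in WB1 (0.15, adjusted p = 0.0798). SDHD, the other anchor, stood on 2 rows. The gene ENSG00000204370 had 1269 to 1785 scaled reads, and ENSG00000255292, a transcript unit in the annotation that shares exons with it and reaches on to BCO2, had 584 to 828, so that reads of the pair may have been divided in the counting.

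In complex IV, only COX7B, in D11 and WB1, and COX7A2L, in WB1, passed among the 11 tested members. That was 9.09% in D11 and 18.2% in WB1, beside 33.3% and 30.9% of all tested genes. COX7B, a small subunit encoded on the X chromosome, had 1421, 1452 and 1472 scaled reads in TPC1, 1629, 1680 and 1607 in D11, 1606, 1747 and 1784 in WB1, with 1568, 1436 and 1480 in TD5. D11 and WB1 lay above TPC1, and it was higher by 0.18 (adjusted p = 0.0349) and 0.24 (adjusted p = 0.00812). After GC correction the D11 value turned to −0.01 (adjusted p = 0.894), and the WB1 value was 0.07 (adjusted p = 0.464). The D11 call was lost without any 1 of the 6 libraries compared. COX7A2L, which joins complexes III and IV into supercomplexes, had 2092, 2138 and 2123 in TPC1, 1984, 1951 and 2046 in D11, 1860, 1979 and 1838 in WB1, with 1980, 1914 and 1949 in TD5. All clone libraries were below TPC1, and the difference passed only in WB1 (−0.16, adjusted p = 0.0327), where it was lost without any TPC1 library or WB1 replicate 1 or 3. COX7C, a small subunit of complex IV, had 2422, 2463 and 2430 scaled reads in TPC1, 2732, 2760 and 2601 in WB1 and 2744, 2694 and 2492 in D11. Both clones lay above TPC1, and the differences did not pass (0.14 in WB1, adjusted p = 0.0669, and 0.11 in D11, adjusted p = 0.134). COX4I1, the regulatory subunit with 5384 to 5816 scaled reads in TPC1, did not pass (−0.14 in D11 and WB1, −0.08 in TD5).

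In complex V, ATP5G1, one of 3 genes for the same c subunit of the proton-driven ring (chromosome 17, 48892765 to 48895871), was lower in all 3 clones. It had 2486, 2634 and 2893 scaled reads in TPC1, 2313, 2304 and 2181 in D11, 2196, 2330 and 2362 in WB1, with 2355, 2384 and 2058 in TD5, with no overlap. The log2 fold changes were close to each other, at −0.24 for TD5 (SE 0.07, adjusted p = 0.0356), −0.23 for D11 (adjusted p = 0.0175) and −0.21 for WB1 (adjusted p = 0.0274). Each call was lost without TPC1 replicate 3, the highest library, and also without D11 replicate 3 in D11, in WB1 without TPC1 replicate 2 or either of WB1 replicates 1 and 2, and, in TD5, without TPC1 replicate 2 or TD5 replicate 1 or 3. The D11 call missed the threshold after GC correction (adjusted p = 0.0559). The other c subunit genes had log2 fold changes in the same direction. ATP5G2 was lower in D11 (−0.17, adjusted p = 0.0278) and ATP5G3 in WB1 (−0.15, adjusted p = 0.0337), and neither call held without TPC1 replicate 2 or 3 or without any library of its clone. After GC correction ATP5G2 did not pass (−0.10, adjusted p = 0.124), and ATP5G3 was at −0.37 (adjusted p = 0.00178). The transcripts of ATP5G1 and ATP5G2 share 219 of 252 aligned bases, and how reads that fit both were handled is not stated in the sources used here.

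ATP5S, also named DMAC2L and first described as coupling factor B of the ATP synthase, is not one of its structural subunits, and it had the largest positive log2 fold change of the members in D11 and WB1. It had 519, 445 and 479 scaled reads in TPC1, 612, 646 and 685 in D11, 662, 643 and 563 in WB1, with 522, 430 and 579 in TD5. D11 and WB1 lay above TPC1 with no overlap, while TD5 spanned it. It was higher by 0.42 in D11 (SE 0.10, adjusted p = 0.00594), under every alternative and without each library, and by 0.36 in WB1 (adjusted p = 0.0138), which missed the threshold after GC correction (adjusted p = 0.0682). The WB1 call was also lost when TPC1 replicate 2, WB1 replicate 1 or WB1 replicate 2 was left out. Exons of CDKL1 lie over it on the opposite strand. ATP5O, a stalk subunit, was higher in D11 (0.17, adjusted p = 0.0300) and WB1 (0.20, adjusted p = 0.0147), with 2752, 2980 and 2953 scaled reads in TPC1, 3198, 3310 and 3249 in D11 and 3225, 3297 and 3434 in WB1. It did not pass with median-of-ratios scaling (adjusted p = 0.176 and 0.107) or after GC correction (adjusted p = 0.204 and 0.115). The D11 call was lost without TPC1 replicate 1 or 3 or any D11 library, and the WB1 call without TPC1 replicate 1 or WB1 replicate 3. ATP5A1 and ATP5B passed in no comparison.

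Over the 3 clones, 24 of the 80 tested members passed in at least 1. How many of all tested genes passed in 1, 2 or 3 clones was not counted, so these numbers are a description. Clone by clone, 33.3% (D11), 30.9% (WB1) and 11.9% (TD5) of all tested genes passed. CYC1 and ATP5G1 were lower in all 3, NDUFA8, NDUFA13, NDUFV1, UQCRC1 and UQCRFS1 in 2, and another 11 in 1. ATP5S, COX7B and ATP5O were higher in both D11 and WB1, and 3 members in 1 clone, NDUFB5 in D11 and NDUFA6 and NDUFA12 in WB1. In 6 of 80 members (7.5%) all 9 clone libraries lay below the 3 TPC1 libraries, namely ATP5G1, COX7A2L, CYC1, NDUFS3, UQCR10 and UQCRC2, and in none did they lie above. Among all tested genes these shares were 6.67% and 5.2%.

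For 5 members that passed in more than 1 clone, a promoter stretch is shown from RefSeq on GRCh38.p14. Respiratory chain genes are known to share binding motifs of NRF1, ETS factors and YY1 in their promoters. Each stretch was chosen to hold the most bases matched by these motifs or SP1, so its matches follow from that choice. Where there was no match, it began 50 bases before the start. The UQCRFS1 stretch begins 157 bases before the start and does not reach it. Capitals mark matches to NRF1 (GCGCATGCG), an ETS core (CCGGAAG) or SP1 (GGGCGG) on either strand. A promoter was matched for 66 of the 88 members.
NDUFA8, chr9:122159750-122159829, minus strand: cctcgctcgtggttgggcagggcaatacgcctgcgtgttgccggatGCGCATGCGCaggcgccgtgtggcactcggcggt
NDUFA13, chr19:19516175-19516254, plus strand: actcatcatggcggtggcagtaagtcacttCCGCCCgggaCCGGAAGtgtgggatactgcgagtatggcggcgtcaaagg
UQCRFS1, chr19:29213229-29213308, minus strand: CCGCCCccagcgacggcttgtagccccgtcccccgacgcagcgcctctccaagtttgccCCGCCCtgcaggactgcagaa
ATP5G1, chr17:48892737-48892816, plus strand: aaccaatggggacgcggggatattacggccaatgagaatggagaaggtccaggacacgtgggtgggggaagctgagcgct
COX7B, chrX:77899418-77899497, plus strand: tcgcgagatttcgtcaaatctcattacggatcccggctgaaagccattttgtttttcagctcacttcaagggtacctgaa

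The NDUFA8 stretch holds an NRF1 palindrome across its start, which counts as 2 overlapping matches, the NDUFA13 stretch an SP1 match beside an ETS core, and the UQCRFS1 stretch a pair of SP1 matches. The stretches of ATP5G1, lower in all 3 clones, and COX7B, higher in 2, hold none of these letters, and neither did the rest of their windows from 250 bases before to 50 after the start. Over those 300 bases and both strands, NRF1 matches were in 12.1% of the members' promoters and 2.10% of all 27305 promoters, ETS cores in 28.8% and 10.7%, YY1 matches (AAGATGGC) in 18.2% and 3.03%, and SP1 matches in 59.1% and 44.6%. Among the 14 members with a promoter that were lower in any clone, 1 held an NRF1, 2 an ETS, 2 a YY1 and 8 an SP1 match. Among the 44 that passed in no clone these numbers were 7, 17, 8 and 28. A match of letters is a description and not a binding site.

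The clones also differed from each other. In WB1 against D11, 0 of 80 members passed by limma, where 8.07% of all tested genes did (4.65% higher, 3.42% lower). At an unadjusted p under 0.05 there was 1 member, NDUFS5 (0.16, adjusted p = 0.149), and voom on the estimated reads also called 0. In TD5 against D11, 8 passed, 3 higher and 5 lower, where 23.2% of all genes passed (8.43% higher, 14.8% lower). In TD5 against WB1, 5 passed, 1 higher and 4 lower, where 13.6% passed (4.52% higher, 9.12% lower). These splits turned with the scaling, to 10 higher and 4 lower for TD5 against D11 and 4 higher and 2 lower for TD5 against WB1 with median-of-ratios scaling. All genes turned too, from 1351 higher and 2370 lower to 1947 and 1805 for TD5 against D11, and from 725 and 1461 to 1219 and 1003 for TD5 against WB1. After GC correction the members were at 7 higher and 0 lower against D11, and 5 higher and 1 lower against WB1, beside 1727 and 1488, and 1116 and 974, of all genes. After the correction for transcript length they were at 9 higher and 4 lower, and 2 higher and 3 lower, beside 2021 and 1655, and 1198 and 947.

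NDUFB3, an accessory subunit of the membrane arm of complex I (chromosome 2, 201071433 to 201085750), was lowest in TD5. It had 563, 519 and 541 scaled reads there, against 673, 777 and 663 in D11, 735, 822 and 676 in WB1, with 622, 595 and 703 in TPC1, and no TD5 library reached any of the other 9. It was lower than in WB1 by −0.44 (SE 0.09, adjusted p = 0.00459), the largest change of any member, and this passed under every alternative and without each library. Against D11 it was −0.37 (adjusted p = 0.00796), which missed the threshold after GC correction (adjusted p = 0.114) or without D11 replicate 2, and against TPC1 −0.23 (adjusted p = 0.102). Exons of HYCC2 lie over it on the opposite strand.

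COX6C, a small subunit of complex IV on chromosome 8, had 1626, 1585 and 1627 scaled reads in TD5, against 1994, 2179 and 2048 in D11, 1980, 2341 and 1878 in WB1, with 1788, 1735 and 2056 in TPC1. TD5 was again below all 9 other libraries. It was lower by −0.36 against D11 (adjusted p = 0.00461) and −0.35 against WB1 (adjusted p = 0.0100), and missed the threshold after GC correction in both (adjusted p = 0.107 and 0.0955). The WB1 call was also lost without WB1 replicate 2. NDUFB5 was lower in TD5 than in D11 (−0.28, adjusted p = 0.00723), with 1148 to 1341 against 1453 to 1603, and after GC correction the difference was −0.08 (adjusted p = 0.277). COX7B (−0.19, adjusted p = 0.0438) and NDUFA12 (−0.25, adjusted p = 0.0191) were lower in TD5 than in WB1, and ATP5S (−0.34, adjusted p = 0.0222) and the SDHD row ENSG00000255292 (−0.23, adjusted p just under 0.05) were lower in TD5 than in D11. Of these, NDUFA12 was lost without WB1 replicate 2, ATP5S without D11 replicate 2 or 3 or TD5 replicate 2, COX7B in 9 and the SDHD row in 10 of the 12 fits that left out 1 library.

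ATP5D, the delta subunit of the ATP synthase and the member with the highest GC content (69.5%), had 777, 1040 and 930 scaled reads in TD5, 595, 623 and 797 in WB1, 776, 775 and 620 in D11, and 700, 687 and 888 in TPC1. The lowest TD5 library lay below the highest WB1 library. It was higher in TD5 than in WB1 by 0.44 (SE 0.13, adjusted p = 0.0325), and this was lost without WB1 replicate 1 or 2 or TD5 replicate 2. NDUFS8, a core subunit of complex I with iron-sulfur clusters, was higher in TD5 than in D11 (0.22, adjusted p = 0.0418), as were NDUFA13 (0.22, adjusted p = 0.0247) and NDUFB11 (0.20, adjusted p = 0.0427). With the replicate number as a block over all 12 libraries, NDUFS8 and NDUFB11 did not pass (adjusted p = 0.0553 and 0.0627). None of the 3 passed after GC correction (adjusted p = 0.155, 0.103 and 0.142 for NDUFS8, NDUFA13 and NDUFB11). NDUFA13 was also lost without D11 replicate 1 or 3 or TD5 replicate 1 or 2, and NDUFS8 and NDUFB11 in 7 of the 12 fits that left out 1 library.

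**Figure D4:**
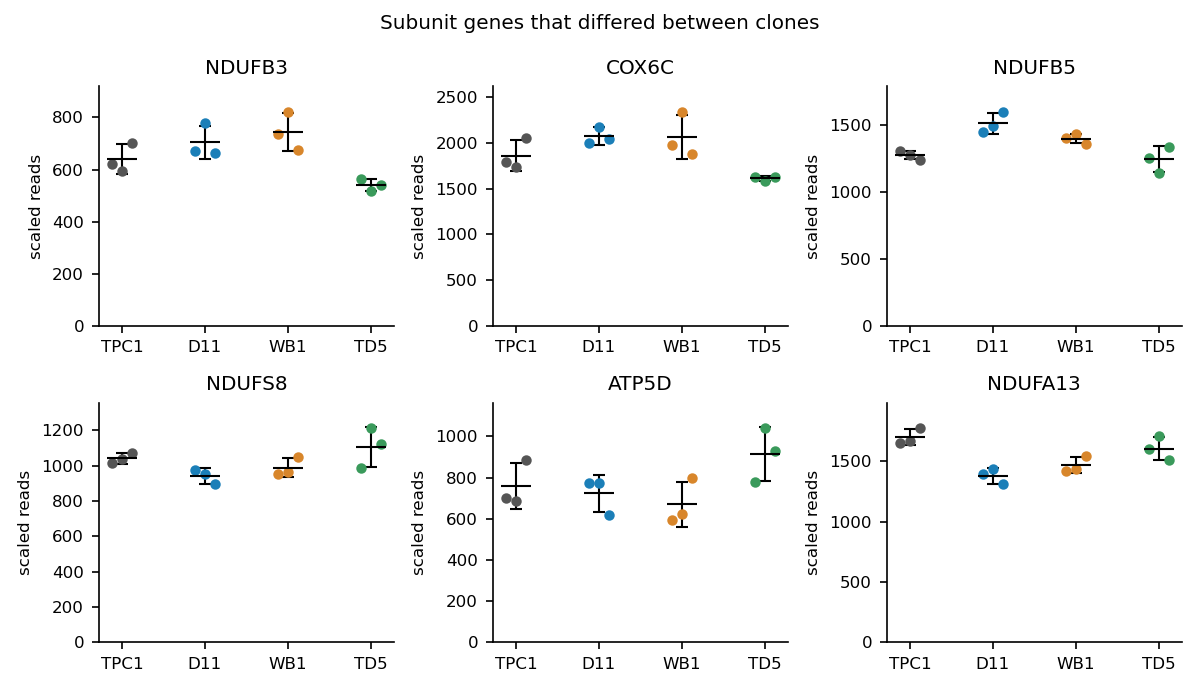
Scaled reads of 6 members that differed between clones (y axes, from 0) in the 3 libraries of each line, with mean and SD (n = 3). NDUFB3 and COX6C were below all other libraries in TD5, NDUFB5 was highest in D11, NDUFS8 and NDUFA13 were higher in TD5 than in D11, and ATP5D was higher in TD5 than in WB1.

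Where D11 or WB1 was compared with TPC1 or TD5, the changes of the members went with GC content. Across the 80 tested members, which share the libraries and are not independent replicates, Pearson's r between the log2 fold change against TPC1 and the GC content of the transcript was −0.63 (D11), −0.65 (WB1) and 0.11 (TD5), and it was 0.71 for TD5 against D11 and 0.68 for TD5 against WB1. Over the 15879 tested genes with a GC content it was −0.41, −0.39, −0.08, 0.37 and 0.39. For WB1 against D11 it was 0.06 over the members and 0.05 over all these genes. The 20 members of lowest GC content, at most 42.7%, had a median log2 fold change of 0.10 in D11, and the 20 of highest, at least 54.5%, had −0.17. The libraries differed in this trend within lines as well. The slope of a library's log2 values, per 10 percentage points of GC, was 0.03 to 0.11 in TPC1, −0.11 to −0.03 in D11, −0.09 to 0.01 in WB1 and −0.01 to 0.12 in TD5. TPC1 replicate 3 and TD5 replicate 2 had the highest slopes and D11 replicate 3 the lowest. Of the 49 passed member comparisons in all 6 contrasts, 21 passed after GC correction. Among those were CYC1 in all 3 clones, NDUFA8 in D11 and TD5, UQCRFS1 and COX7A2L in WB1, and NDUFB3 in TD5 against WB1. Among calls that passed either way, the correction moved CYC1 from −0.34 to −0.22 and NDUFA13 from −0.30 to −0.18 in D11, CYC1 in WB1 from −0.29 to −0.17, and ATP5S in D11 from 0.42 to 0.25. Other members moved further from 0, UQCRC2 from −0.16 to −0.32 and UQCRFS1 from −0.15 to −0.30 in D11, and UQCRFS1 from −0.22 to −0.36 and COX7A2L from −0.16 to −0.37 in WB1.

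The 13 subunit genes of the mitochondrial genome stood apart from the nuclear members. All 13 were higher than TPC1 in each clone, and their median was 0.69 (D11), 0.66 (WB1) and 0.41 (TD5) on the log2 scale, beside the nuclear medians of −0.05, −0.06 and −0.04, and 9, 10 and 0 of them reached 1.5-fold. All 37 rows of the mitochondrial genome, ribosomal and transfer RNAs included, took 1.33% to 1.45% in TPC1, 2.07% to 2.17% in D11, 1.90% to 2.22% in WB1 and 1.67% to 1.95% in TD5. Leaving these 37 rows out of the library sum gave 18 (D11), 13 (WB1) and 4 (TD5) passed nuclear members.

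Of 57 rows for factors that assemble the complexes, 13 were higher and 5 lower in D11. In WB1 these counts were 10 and 4, and in TD5 they were 1 and 1, against the backgrounds given above. The rows held 56 genes, since SCO2 stood on 2 rows. It was counted as lower on both, in D11 (−0.44 and −0.45) and in WB1 (−0.49 on each). COX20, which helps to insert COX2 into complex IV, was higher in all 3 clones, by 0.59 in D11 (adjusted p = 0.000187), 0.52 in WB1 (adjusted p = 0.000516) and, less, 0.31 in TD5 (adjusted p = 0.0302). COA5, another complex IV factor, was higher in D11 (0.55, adjusted p = 0.00194) and WB1 (0.52, adjusted p = 0.00278). TMEM126B, of the complex I assembly machinery, was higher in D11 (0.41, adjusted p = 0.0228) and WB1 (0.40, adjusted p = 0.0262), and FMC1, of the complex V list, was lower in WB1 (−0.44, adjusted p = 0.0116) and TD5 (−0.41, adjusted p = 0.0365). LYRM7, which loads UQCRFS1 into complex III, was higher in D11 (0.46, adjusted p = 0.0489). None of the 4 complex II assembly factors passed. Per gene, the alternative processings and the fits without single libraries were recorded for the members only. Calls of all other genes named here, the mitochondrial ones included, were not checked in that way.

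Of 15 tested regulators of mitochondrial biogenesis, 4 were higher and 2 lower in D11, while both WB1 and TD5 had 1 higher and 2 lower. YY1, a transcription factor that binds many of these promoters, was higher in all 3 clones (0.31 for D11, 0.27 for WB1 and 0.33 for TD5, adjusted p of 0.00908 to 0.0213). TWNK, the helicase that unwinds mitochondrial DNA, was lower in all 3 (−0.21, −0.31 and −0.29 in that order, adjusted p of 0.00672 to 0.0393). PPRC1, a coactivator of NRF1, was lower in D11 (−0.39, adjusted p = 0.000483), WB1 (−0.38, adjusted p = 0.000561) and TD5 (−0.35, adjusted p = 0.00179), and TFAM, which packages and transcribes mitochondrial DNA, was higher in D11 (0.51, adjusted p = 0.0129). Of 14 genes for the mobile electron carriers and ubiquinone synthesis, 2 were higher in D11, 5 higher and 1 lower in WB1, and none passed in TD5. The 1 lower was COQ8A (−0.51, adjusted p = 0.000318). Of 13 citric acid cycle genes, 2 were higher and 6 lower in D11, 2 and 4 in WB1, and none passed in TD5. OGDH, a subunit of the oxoglutarate dehydrogenase, was lower in D11 (−0.38, adjusted p = 0.000348). The regulator, carrier and citric acid cycle counts have the same background as the members, which for D11 was 19.9% higher and 13.4% lower. For WB1 this background was 18.6% higher with 12.3% lower, while TD5 had 5.32% higher with 6.57% lower. Whether any of these lists departed from its background was not tested.

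Some rows share sequence or position with others. Exons of 24 members overlap those of another listed gene on the same strand, of 30 on the opposite strand, and of 43 on either, and whether the counting used the strand is not given in the sources used here. UQCRHL, a retrocopy of UQCRH, matches it at 272 of 276 bases (98.6%), took 17.7% to 20.7% of the summed reads of the pair in every library, and its own expression is therefore uncertain. The 141 rows left out as named pseudogenes held 5.65 to 8.84 per 1000000 in all, and the 5 hyphenated names 122 to 149, against 8401 to 9352 for the members.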

How the data were processed

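Per the labels and the study's methods, TruSeq Stranded mRNA libraries were sequenced as paired ends, mapped with STAR 2.5.3a to GRCh38 and counted on Ensembl 90 genes with HTSeq 0.9.1. The deposited values are a score: gene counts that the authors scaled to 20000000 aligned reads, which sum to 20009833 to 20014191 per library, an excess that fits rounding up. Depth per library was estimated from the steps between whole numbers.

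No count model was used because the deposited values are scaled. For 16027 of 58302 genes, those that reached 1 per 1000000 in 3 or more libraries, log2(value per 1000000 + 1) was fitted with 1 mean per line and a variance trend (limma 3.58.1, R 4.3.3). The pseudocount of 1 changes fold changes at these levels little. Alternatives were the pseudocount, the filter, the scaling, corrections for GC content and transcript length, a replicate block, the lines in the fit, a minimum of 1.5-fold and leaving out each library, and, chosen after seeing the data, voom on the estimated reads. The fit was tested on simulated data with changes set in D11 against TPC1. Among changed genes at 20 per 1000000 or more, it recovered 56% of the 25 changed 1.25-fold and 100% of those changed 1.5-fold. The simulation gave all genes the same dispersion and no library a trend with GC content or length. Recovery in the real libraries was therefore not measured, and small changes of members could be missed.

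Members and gene lists were chosen with earlier results of these data known. Members named were the 3 of each complex with the widest range of line means, the highest and lowest per length, the SDH genes, CYC1 and tissue isoforms, those under the filter, and those that passed. The choice of any other member followed a look at its values. Results of some genes are not reported here. Same-numbered libraries of TD5 and D11 had correlated deviations (0.11, 0.17 and 0.35), where those of the other line pairs ran from −0.27 to 0.11. The number was therefore read as a possible pairing for TD5 and D11 only, after these values were seen, and no label says so. The block was fitted over all 12 libraries, and the main calls come from the fit without it. Positions, lengths and GC content came from GENCODE 44 on GRCh38, and promoters from RefSeq. Scripts ran in Python 3.11.15 (pandas 2.3.3, numpy 2.4.6, scipy 1.17.1), and plots were drawn with matplotlib 3.10.9.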

Additional observations from a re-analysis of the deposited data

Results flagged for a closer look

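In 13 instances a member's change against TPC1 differed between 2 clones by the limma test of the difference itself, at an adjusted p under 0.05. TD5 minus D11 was −0.34 for ATP5S, −0.36 for COX6C, −0.37 for NDUFB3, −0.28 for NDUFB5, −0.23 for the SDHD row ENSG00000255292, 0.22 for NDUFA13, 0.20 for NDUFB11 and 0.22 for NDUFS8, on the log2 scale. TD5 minus WB1 was 0.44 for ATP5D, −0.35 for COX6C, −0.19 for COX7B, −0.25 for NDUFA12 and −0.44 for NDUFB3. The members lower in TD5 had GC contents of 39.8% to 48.9% and those higher 58.9% to 69.5%, and the part of GC content was measured in 1 way only, the correction of each library, after which ATP5D (0.25, adjusted p = 0.0405) and NDUFB3 (−0.29, adjusted p = 0.0256) against WB1 were the differences that still passed.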

How the results depend on the processing

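The number of members that passed moved by over 1.5 times under some settings, and the cause was not tested. WB1 against TPC1 gave 20 with median-of-ratios scaling and 8 with the replicate block, beside 13. TD5 against TPC1 gave 2 with a filter of any value above 0, and 1 with the replicate block, with the block and the length correction, or with the 2 lines alone, beside 4. TD5 against D11 gave 5 with that filter, 14 with median-of-ratios scaling, 13 with the length correction and 5 with the 2 lines alone, beside 8. TD5 against WB1 gave 3 with that filter and 2 with the 2 lines alone, beside 5. A minimum of 1.5-fold gave 0 in all 6 comparisons.

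Leaving out 1 library gave 5 to 23 for D11 against TPC1, 6 to 16 for WB1 against TPC1, 1 to 5 for TD5 against TPC1, 3 to 15 for TD5 against D11, 1 to 9 for TD5 against WB1 and 0 for WB1 against D11. D11 against TPC1 fell to 9, 7, 10, 10 and 5 without TPC1 replicate 2, TPC1 replicate 3 and D11 replicates 1, 2 and 3. WB1 against TPC1 fell to 6 without TPC1 replicate 2 or 3 or WB1 replicate 1, and to 7 without WB1 replicate 2. TD5 against TPC1 fell to 2 without TPC1 replicate 1 or 2 or D11 replicate 1 or 2, and to 1 without TPC1 replicate 3 or TD5 replicate 1 or 3. TD5 against D11 fell to 5 without TPC1 replicate 2 or D11 replicate 1, to 4 without TD5 replicate 2 and to 3 without D11 replicate 2 or 3. TD5 against D11 was at 15 and TD5 against WB1 at 9 without TD5 replicate 3, and TD5 against WB1 at 1 without WB1 replicate 2.

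COX7B in D11 against TPC1 changed sign, to −0.014, after GC correction with and without the replicate block. For TD5 against D11, where the number was read as a possible pairing, the block gave 6 passed members, 1 higher and 5 lower. Of the 8 calls only NDUFB11 and NDUFS8 were lost. Elsewhere the numbers were taken as sample names only: the block gave 15 for D11 against TPC1, 4 for TD5 against WB1 and 0 for WB1 against D11. Of the 49 passed member comparisons, 11 passed under all 13 alternatives that kept every library, and 7 of these also without each of the 12 libraries. Of the 1225 values recomputed for them, 930 kept direction and call, 293 kept direction only and 2 changed sign. Voom on the estimated reads, chosen after seeing the data, gave 19, 13, 4, 0, 8 and 5. Apart from the 8 rows under the filter and NDUFA4L2, every member had at least 300 scaled reads in each library. How far depth limited the calls of those members was not tested.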
